A study of Mus musculus with 4 samples.

Results

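The regions described here lie in gene deserts, stretches of the genome with no annotated gene close by. They were taken from a list of places with less sequenced DNA from satellite cells of tamoxifen-treated mice than from those of oil-treated mice. This DNA is assumed to be the captured, methylated part. A region was counted when it lay on chromosomes 1 to 19 and its midpoint was 100 kb or more from the body of every protein-coding or lncRNA gene in the RefSeq annotation of GRCm38 (mm10). The rule used position only, and 1616 of the 38581 listed regions on these chromosomes met it (4.19%, exact 95% limits 3.99% to 4.39%). The whole list holds 39231 regions. The rule did not use genes of other types, and 906 of the 1616 regions (56.1%) had a pseudogene, small RNA or other gene row within 100 kb, while 710 had no gene row of any type.

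Uhrf1 recognises hemimethylated CpG sites left by DNA replication and brings the maintenance methyltransferase Dnmt1 to them, so that daughter cells inherit the methylation pattern. Most CpG sites outside promoters and CpG islands are methylated in somatic cells, in deserts as well as in genes. Mouse gene deserts are generally poor in CpG, rich in transposon remnants and late in replication, and some hold distant enhancers of developmental genes. These points are background and were not measured here.

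Satellite cells, the stem cells of skeletal muscle, came from hindlimb muscles of 9-week-old mice and were cultured for 3 days on Matrigel. The tamoxifen group was injected on 5 consecutive days (150 µl of 20 mg/ml in corn oil) to switch on Cre recombinase and make the cells Uhrf1-deficient, and the oil group was the control. The Cre driver, the Uhrf1 allele and the genotype of the oil mice are not given in the sources used here. Captured (methylated) and uncaptured (non-methylated) DNA was sequenced from each group, 4 libraries in 4 groups of 1 sample. No value below has a replicate and no test between conditions was possible. Loss of Uhrf1, tamoxifen itself, the mice used, the culture and the capture step cannot be told apart in this design.

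The authors' caller compared 1 tamoxifen library of 25614791 tags with 1 oil library of 19534328 tags, both after duplicate removal. The header does not say which DNA part these came from, and the captured part is assumed below. Every region is on the list because oil was higher than tamoxifen at its summit, the position of highest oil coverage, so a lower tamoxifen signal is a property of the list and not a finding. The questions addressed were how dense such regions were in deserts, how much signal tamoxifen retained there, and where they lay. Tags below are unscaled counts over the summit. The retained signal is the tamoxifen value scaled to the oil library size, as a percent of oil. The deposited fold runs the other way, oil over tamoxifen, with 1 added to each. Regions are not replicates, so differences between sets of regions are given as descriptions with no test.

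Regions were sparse in deserts. Between the first and the last gene of each chromosome, 364.5 Mb lay 100 kb or more from a gene, 15.2% of the span. This far territory held 1568 of the regions, 4.30 per Mb, against 18.1 per Mb in the other 2035 Mb of the span. The density ratio was 0.237 (exact 95% limits 0.225 to 0.249, for counting error alone). The other 48 far regions lay ahead of a chromosome's first gene (47) or beyond its last (1). Capture by MBD2 depends on the number of methylated CpGs in a fragment, no genome sequence was used here, and the part of CpG density in this ratio was not tested. Territory was counted by position alone, with no assembly gaps or repeats taken out. Their part in the ratio was not tested either.

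The density was lower farther from genes, and changed little between 200 and 1000 kb. It was 21.9 regions per Mb inside genes, 18.6 within 2 kb of one, 16.4 at 2 to 10 kb, 12.7 at 10 to 50 kb and 7.64 at 50 to 100 kb. Beyond the limit it was 5.02 per Mb at 100 to 200 kb, 3.80 at 200 to 500 kb, 3.88 at 500 to 1000 kb and 2.76 at 1000 kb or more. The limit of 100 kb therefore cuts a gradient and does not mark a break in it. The median member was 198 kb from a gene, 239 members were at 500 kb or more, and 23 were at 1000 kb or more.

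**Figure D1:**
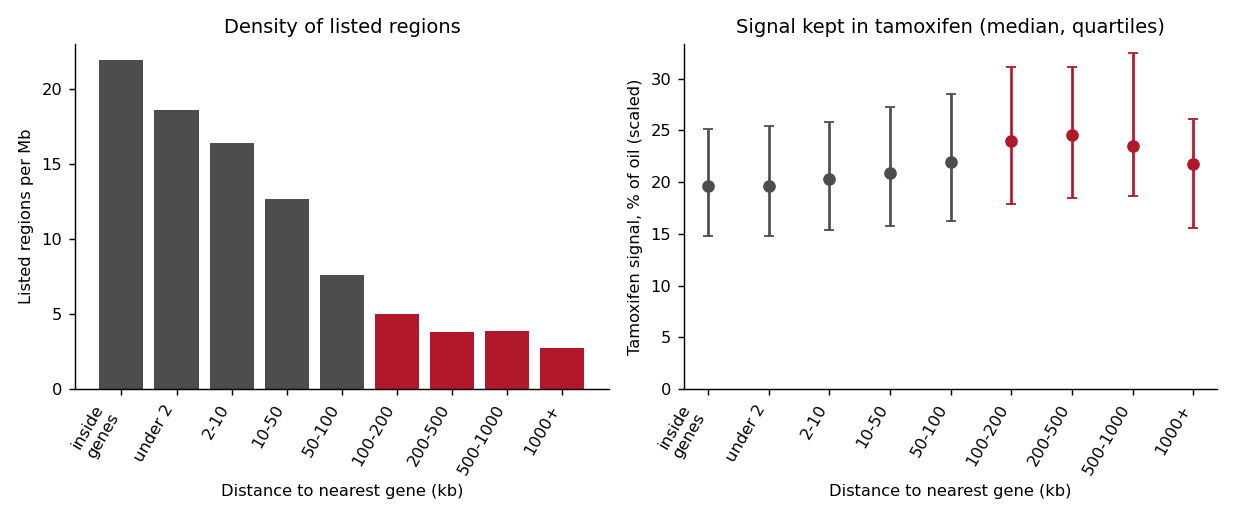
Left, listed regions per Mb against distance to the nearest protein-coding or lncRNA gene in kb (red, 100 kb or more). Right, the tamoxifen signal as a percent of oil after scaling, as medians (points) with quartiles (bars): density is 21.9 per Mb inside genes and 2.76 at 1000 kb or more, and the retained signal is highest, at 24.5%, at 200 to 500 kb.

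Tamoxifen retained more signal in desert regions than elsewhere on the list. The 1616 far regions had a median of 18 tamoxifen tags (2 or fewer to 393) against 56 oil tags (13 to 399), and the 36965 other regions had medians of 14 tamoxifen tags and 51 oil tags. The retained signal had a median of 24.2% in far regions (quartiles 18.2% and 31.3%) and 19.9% in the others (15.1% and 25.4%), so the ranges overlapped widely. The deposited fold of oil over tamoxifen had a median of 3.94 in far regions and 4.64 in the others. With the regions ahead of the first gene of chromosome 9 left out, which are described below, the far median was 24.0%.

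Large differences were fewer among desert regions. A fold of 4 or more was reached by 767 far regions (47.5%, upper exact 95% limit 49.9%), against 66.2% of all listed regions on these chromosomes. A fold of 10 or more was reached by 13 (0.804%, limits 0.429% to 1.37%), against 2.03%. At the other end, 49 (3.03%, limits 2.25% to 3.99%) had a fold under 2, against 0.635%, and 30 of the 49 were at the start of chromosome 9. Without that run, 19 of 1584 had a fold under 2. A q of 1e-10 or smaller was reached by 1234 (76.4%), against 82.9%. These limits treat regions as independent.

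The retained signal was higher farther from genes, up to 500 kb. Its median was 19.6% inside genes, 20.3% at 2 to 10 kb, 20.9% at 10 to 50 kb and 21.9% at 50 to 100 kb. It was 24.0% at 100 to 200 kb, 24.5% at 200 to 500 kb, 23.5% at 500 to 1000 kb and 21.8% in the 23 regions farther out. Within the same gene-free stretches, the 849 regions under 100 kb from the flanking gene had a median of 21.8%. Regions 100 kb or more from protein-coding genes but closer to a lncRNA gene numbered 2375 and had a median of 21.0%, and the 538 of them inside a lncRNA gene had 20.6%. Members with and without another gene row within 100 kb had like medians, 23.9% in 874 (chromosome 9 start left out) and 24.1% in 710.

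Oil coverage was slightly higher in far regions, and the retained signal was higher in regions with more oil tags in both sets, except between 60 to 79 and 80 to 119 tags. To pass the q limit, a region with few oil tags needs a lower tamoxifen signal than one with many. A rise with oil tags can thus come with the list itself, so it is not read here as a property of the DNA. The part of the q limit in it was not tested. The sets were therefore set side by side at equal oil tags, without the start of chromosome 9. At 40 to 59 oil tags the retained signal was 23.8% in 512 far regions and 20.5% in 11322 others. At 60 to 79 it was 26.9% in 303 far regions and 21.1% in 5837 others. At 80 to 119 it was 26.8% in 241 and 20.8% in 4990, and at 120 to 199 it was 30.1% in 151 and 24.4% in 3263. The gap was smaller at 30 to 39 oil tags (18.6% in far regions and 17.9% in others) and under 30 (15.8% and 14.5%). The q limit holds the retained signal lowest at few oil tags, and its part in these smaller gaps was not tested. At 200 or more the 6 far regions had 38.3%, the same as the 213 others.

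**Figure D2:**
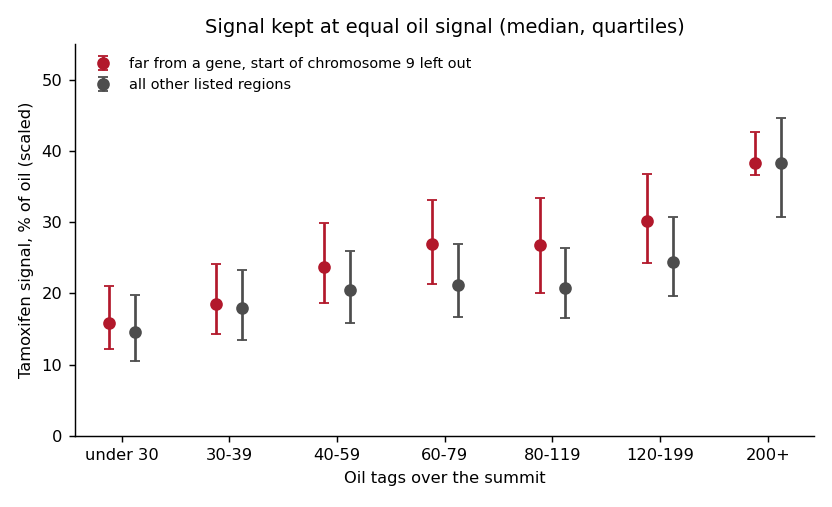
Tamoxifen signal as a percent of oil after scaling (medians with quartiles) for bins of oil tags over the summit, far regions (red, start of chromosome 9 left out) left of all other listed regions (grey). The far median is above the other median in each bin under 200 oil tags and level with it at 200 or more, where only 6 far regions fall, and the quartiles overlap in each bin.

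The pattern was seen on each autosome. The median retained signal was higher in far regions than in the others on 19 of 19 chromosomes. Leaving chromosome 9 aside, the far medians ran from 21.4% on chromosome 7 to 25.4% on chromosome 12, and the other medians from 19.5% to 20.5%. On chromosome 9 the far median was 34.8% with its start and 24.5% without it, against 20.0% in the others. Chromosome 7 had the smallest gap, 21.4% in 55 far regions and 20.3% in 2082 others. The 19 chromosomes come from the same pair of libraries and are not replicates.

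Desert density and the density nearer to genes had little order in common over the chromosomes. Far density was highest on chromosomes 11 (5.96 per Mb), 13 (5.79) and 18 (5.41) and lowest on 6 (3.14) and 15 (3.69). On every chromosome it was below the density of the rest of the span, from 17.0% of it on chromosome 15 to 35.5% on chromosome 13. Over the 19 chromosomes the far and other densities had a Pearson r of 0.02 and a Spearman rho of 0.05, given as a description, since all points share the same libraries. Chromosome 17, with 24.2 regions per Mb in the rest of its span, had 4.49 in far territory, and chromosome 1, with 14.4 in the rest, had 4.35. Chromosome 1 held most members (167) and chromosome 19 fewest (25).

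**Figure D3:**
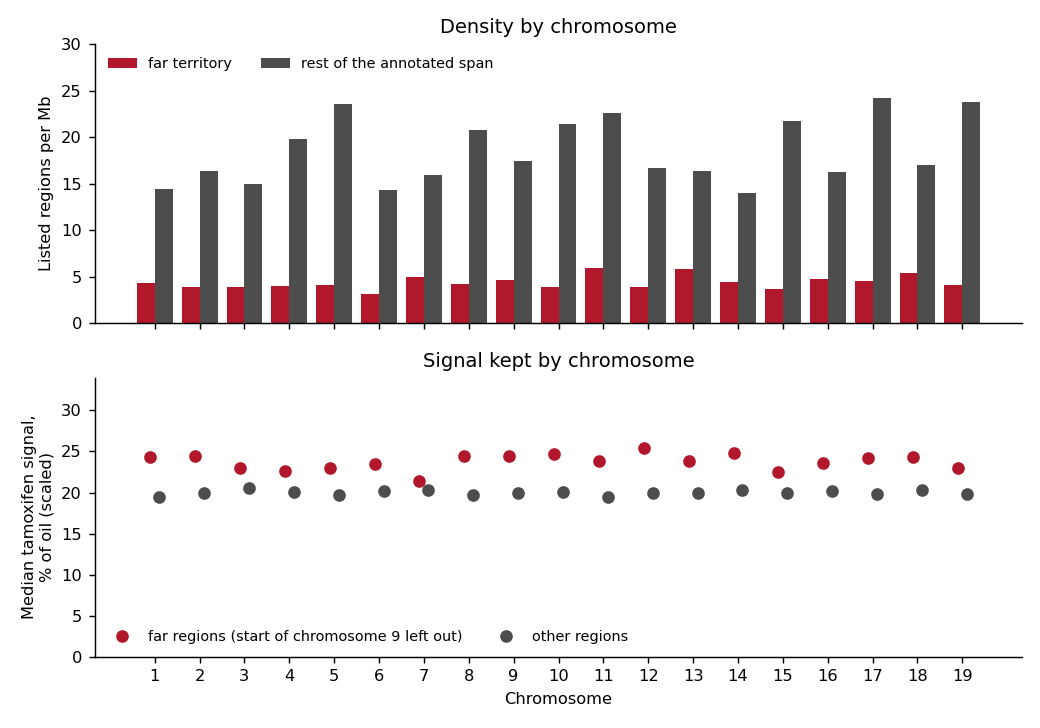
Top, listed regions per Mb by chromosome in far territory (red) and, right of it, in the rest of the annotated span (grey): far density is the lower on all 19, between 3.14 and 5.96 per Mb. Bottom, the median tamoxifen signal as a percent of oil after scaling in far regions (red, start of chromosome 9 left out) and other regions (grey): the far median is the higher on all 19.

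A run of 32 regions at the start of chromosome 9 had more tags and lower folds than most other members. They lay between 3000215 and 3038439, within 38.2 kb, ahead of the chromosome's first annotated gene, the lncRNA gene 4930433N12Rik. They had 72 to 393 tamoxifen tags (median 252) against 129 to 399 oil tags (median 270), while the other 1584 members had at most 133 tamoxifen tags and 248 oil tags. Tag for tag the libraries were nearly level there, with an unscaled tamoxifen count at a median of 91.4% of oil, and scaling for library size brought this to 69.7% (38.1% to 75.3%). The fold was 1.33 to 2.59. The 5 regions with most oil tags were all in this run. The first, from 3000215 to 3000621, had 393 tamoxifen tags against 399 oil tags, a retained signal of 75.1% (exact 95% limits 65.2% to 86.6%). The widest member, 1357 bp from 3031343 to 3032699, also lay there, with 301 tamoxifen tags against 305 oil tags.

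Of the 39 autosomal regions with 200 or more tamoxifen tags on the whole list, 23 were in this run and no other far region was among them. In this short stretch heavy coverage of both libraries came with the low fold. The q limit admits the lowest folds only where tags are many, and its part in this link was not tested. At 200 or more oil tags the median retained signal was 38.3% in the 213 regions nearer to genes. It was 69.7% in the 31 far regions at that level, with this run included. The sequence and repeat content of the stretch, and their part in the result, were not tested. Ahead of the first gene of 6 other chromosomes lay 15 further regions, with a median retained signal of 22.6%, close to the other members.

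**Figure D4:**
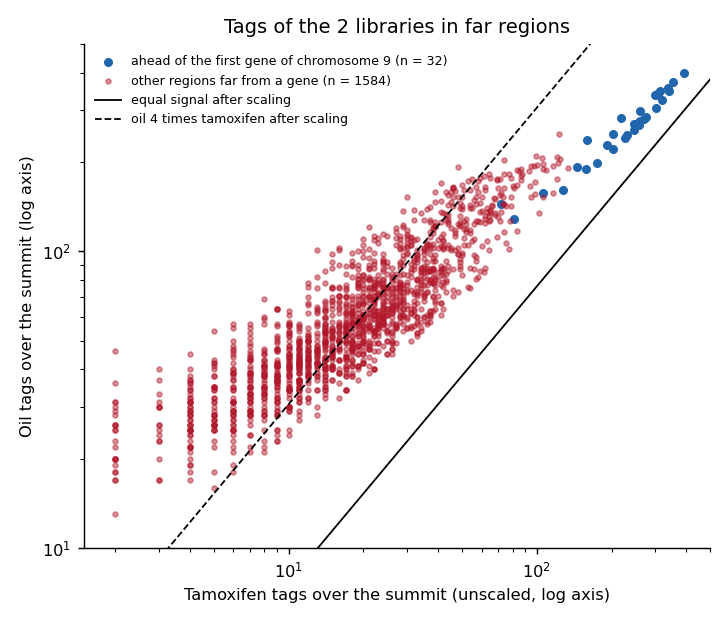
Tamoxifen tags (horizontal, unscaled) against oil tags (vertical) over the summit of the 1616 far regions, both axes logarithmic, with lines for equal signal after scaling (solid) and for oil at 4 times tamoxifen (dashed). The 32 regions at the start of chromosome 9 (blue) lie at the upper right, near the line of equal signal, apart from most of the other 1584 (red).

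The highest folds in deserts left 6 or fewer tamoxifen tags. The highest fold, 15.16, was on chromosome 11 from 45404945 to 45405188, where 2 or fewer tamoxifen tags stood against 46 oil tags (retained signal at most 12.7%, the upper 95% limit). This fold was set by the genome mean, the lowest background the caller allows, as it was in 24 members (1.49%, against 2.48% of all listed regions), so its rank is not resolved. The region lies 256 kb from the lncRNA gene Gm39816 and 397 kb from Ebf1, a transcription factor gene of B cell and fat cell development. The next, on chromosome 3 from 35100580 to 35100858, had 3 tamoxifen tags against 40 oil tags (12.47-fold, retained 5.72%, limits 1.13% to 18.0%). It lies 448 kb from Sox2, which encodes a pluripotency and neural transcription factor, with the lncRNA gene Gm35255 closest at 141 kb.

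The other members of the top 10 by fold had at most 6 tamoxifen tags. On chromosome 15, 43632697 to 43632960, 105 kb from the ER membrane complex gene Emc2, 2 or fewer tamoxifen tags stood against 36 oil tags (11.94-fold, set by the genome mean). On chromosome 5, 14403261 to 14403563, between the guidance gene Sema3e and the presynaptic scaffold gene Pclo, there were 3 tamoxifen tags against 37 oil tags (11.56-fold). A region on chromosome 16, 51193575 to 51193851, 140 kb from the lncRNA gene Gm32431, had 5 against 54 (11.43-fold). Its flanking protein-coding genes were Ccdc54, 603 kb away, and the ubiquitin ligase gene Cblb, 838 kb away. With so few tags the intervals are wide, and for the chromosome 16 region the upper limit of the retained signal was 17.5%.

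Next came chromosome 18, 50878708 to 50878937, 239 kb from Prr16, with 4 tamoxifen tags against 45 oil tags (11.36-fold). Chromosome 5 had another, 60642432 to 60642764, 338 kb from the lncRNA gene Gm40307, with 6 tamoxifen tags against 57 oil tags (10.40-fold). A region of chromosome 11, 19264279 to 19264511, lies inside the pseudogene Gm12026 and 245 kb from Meis1, a homeobox gene, and had 3 against 33 (10.34-fold). The last 2, at 10.32-fold, had 2 or fewer tamoxifen tags against 31 oil tags. On chromosome 14, the region from 91349906 to 91350204 lay in the desert next to the protocadherin gene Pcdh9, but 1664 kb from that gene. On chromosome 8, that from 115475010 to 115475226 lay between the tumour suppressor gene Wwox (122 kb away) and the transcription factor gene Maf (228 kb away). All 10 had 31 to 57 oil tags, so the highest folds were not in the best covered members. Ratios of few tags vary most through counting error, and its part in this ranking was not tested.

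The members farthest from genes showed no common level. The farthest, on chromosome 3 from 43541301 to 43541509, lay 1738 kb from D3Ertd751e and had 42 tamoxifen tags against 79 oil tags (2.42-fold, retained 40.5%, limits 27.2% to 59.7%). Of all listed regions only 2.80% had a smaller fold. Also in this stretch, which runs from D3Ertd751e to 2610316D01Rik near the protocadherin gene Pcdh10, the region from 44004114 to 44004339 had 3 tamoxifen tags against 30 oil tags (9.43-fold, retained 7.63%, limits 1.49% to 24.5%). In the same stretch the region from 43754161 to 43754371 had 7 against 24 (3.94-fold), and that from 43270175 to 43270425 had 2 or fewer against 20 (6.77-fold). The remaining one of the 5 farthest, on chromosome 1 from 102909112 to 102909323, had 10 against 30 (3.59-fold). Low and high retained signals thus occurred within the same desert.

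At the limit itself, the 3 members nearest to it (100.05 to 100.09 kb from a gene) had 36, 12 and 18 tamoxifen tags against 107, 50 and 47 oil tags. The 3 regions just outside it (99.88 to 99.98 kb) had 14, 89 and 42 tamoxifen tags against 62, 180 and 111 oil tags. Folds were 3.80, 5.02 and 3.26 inside and 5.40, 2.63 and 3.39 outside.

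The annotation holds 1162 deserts with far territory, and 624 of them (53.7%) held a far region. Larger deserts more often held 1, but at a lower density. Of 424 deserts with up to 0.1 Mb of far territory 26.9% held a region, at 7.67 per Mb, and all 12 with more than 2 Mb did, at 3.17 per Mb. Small deserts hold only territory near the limit, and the part of distance in this difference was not tested. A single region was found in 265 deserts and 5 or more in 82, which together held 567. Of 83 deserts with 1 Mb or more, 2 held none: Gm31747 to Gm38835 on chromosome 6, with the catenin gene Ctnna2 1454 kb beyond it, and Gm42163 to Gm35251 on chromosome 5. The list holds no value for places that were not called, so nothing is known of the signal there.

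The 10 deserts with most members held 9 to 14 each. The most were between the lncRNA genes Gm41243 and Gm41244 on chromosome 14. This stretch lies 1039 kb from Slitrk5, a neuronal adhesion gene, and 326 kb from the glypican gene Gpc5. It held 14 members. They had 14 to 74 tamoxifen tags against 41 to 135 oil tags and a median retained signal of 26.9% (17.5% to 48.6%). The stretch from Gm33246 to Pcdh9 on the same chromosome held 13, with 2 or fewer to 57 tamoxifen tags against 31 to 147 oil tags and a median of 31.9% (6.77% to 45.3%). It holds both a region in the top 10 by fold, whose lowest percent is set by the genome mean, and 1 of 2.18-fold.

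The stretch from Wac, a gene of transcription-coupled histone ubiquitination, to Gm35180 on chromosome 18 also held 13, but in only 0.545 Mb, 23.9 per Mb. That is above the 17.0 per Mb of the rest of chromosome 18. Its retained signals ran from 17.9% to 40.01% (median 25.4%). The stretch from Gm32710, next to the contactin gene Cntn5, to 4930568E12Rik on chromosome 9 held 12, with a median of 29.7% and a member at 57.6%, 77 tamoxifen tags against 102 oil tags. Each of the next 4 held 10. They were Nova1 to Gm34304 on chromosome 12, beside an RNA-binding protein gene of neurons (median 18.9%), and Pom121l12 to Vstm2a on 11 (20.9%). The others were Gm13470 to Gm52576 on 2 (22.8%) and Ccng1 to A230004M16Rik on 11, beside a cyclin gene (25.1%). The protein-coding genes that flank the chromosome 2 desert were Zeb2, 1325 kb from it, and the activin receptor gene Acvr2a, 985 kb from it. The last of the 10 deserts held 9 each. They lay between the cadherin genes Cdh6 (131 kb away) and Cdh9 (950 kb away) on chromosome 15 (20.8%), and 162 kb from Flrt2 on 12 (21.8%). Desert medians thus lay both above and below the 24.2% of all members.

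**Figure D5:**
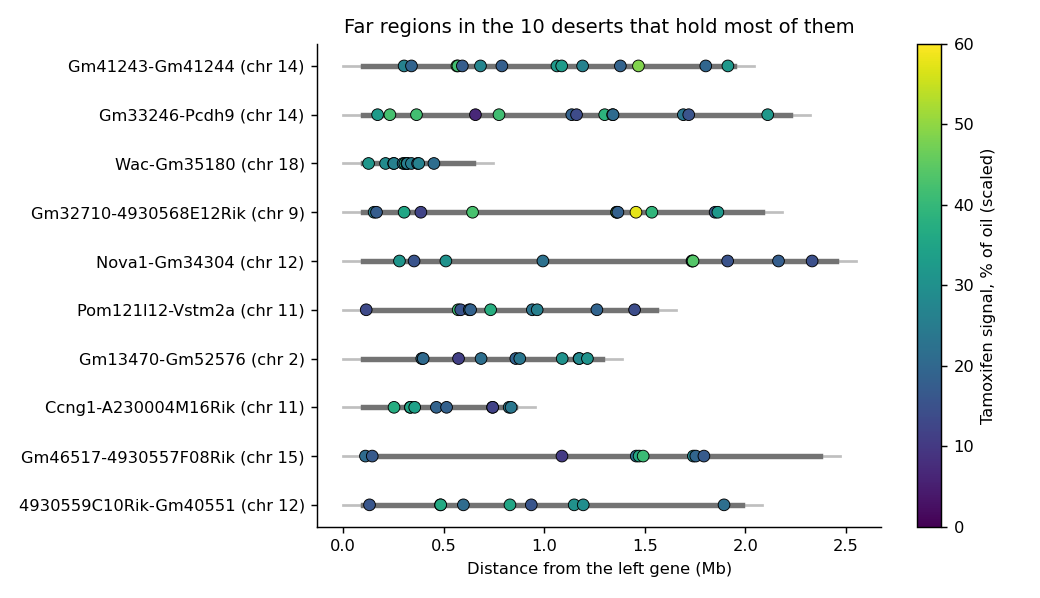
Far regions (points) along the 10 deserts that hold most of them, by distance in Mb from the gene on the left (light line, gene-free stretch; dark line, part 100 kb or more from both genes), coloured by the tamoxifen signal as a percent of oil after scaling. Points of low and high percent lie in the same desert, as between Gm33246 and Pcdh9 (6.77%, set by the genome mean, to 45.3%).

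Per Mb, among deserts with 1 Mb or more, Gm13470 to Gm52576 led with 8.43. Ppp6c to Lrp1b on chromosome 2, from a phosphatase gene to a lipoprotein receptor gene, followed with 9 regions (7.70 per Mb, median retained signal 24.4%). Tbl1xr1 to 4930412E21Rik on chromosome 3 had 8 (7.66 per Mb, 29.6%), Gm41243 to Gm41244 7.59 per Mb and Pom121l12 to Vstm2a 6.86 per Mb. All 5 were below the 18.1 per Mb of territory closer to genes.

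Members were mostly solitary. The nearest other listed region was a median of 52.6 kb away for far regions and 10.1 kb for the others, and 23.0% of far regions and 49.7% of the others had another within 10 kb. The lower density of listed regions in deserts by itself widens the spacing, and clustering beyond density was not tested. Joined at 10 kb, the members formed 1249 single regions, 136 pairs, 15 runs of 3, 2 of 4, 2 of 5 and the run of 32. A run of 5 on chromosome 1, 145527380 to 145535584, in the desert beside the G protein signalling regulator gene Rgs18, had 10 to 17 tamoxifen tags against 39 to 58 oil tags and a retained signal of 14.7% to 25.4%. The other run of 5, on chromosome 18, 8227712 to 8249073, in the Wac desert and touching the pseudogene Gm20147, had 20.7% to 40.01%. The runs of 4 were on chromosome 9, 25855690 to 25862390, beside Eepd1 (15.4% to 44.8%) and on chromosome 17, 76037865 to 76045771 (27.9% to 40.2%).

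Close neighbours were little closer in fold than distant ones. Neighbouring members of the same desert, the chromosome 9 start left out, differed in fold by a median of 1.31 times when up to 1 kb apart (21 pairs), 1.41 times at 1 to 10 kb (159 pairs), 1.40 times at 10 to 100 kb (379 pairs) and 1.43 times beyond that (394 pairs). The spread between neighbours was thus nearly as wide as between distant members of a desert. With a median of 18 tamoxifen tags against 56 oil tags in these members, counting error alone makes folds differ. Its part in these differences was not tested, so they do not show that neighbours truly differ.

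Pseudogenes, the relics of gene copies, were the most common annotation that members did overlap. Of the 1616, 74 touched a pseudogene and 1502 (92.9%) touched no gene row of any type. Within far territory, 60 midpoints lay in pseudogenes, 15.9 per Mb of pseudogene, against 4.18 per Mb elsewhere in it. Pseudogenes make up 1.04% of far territory and held 3.83% of its members. The retained signal was alike, with a median of 23.3% over pseudogenes and 24.2% in the other members.

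In all, 68 pseudogenes carried a member and 5 carried more than 1. Hspd1-ps3, a copy of a mitochondrial chaperonin gene, carried 2 on chromosome 11 (41498677 to 41500911). One had 99 tamoxifen tags against 209 oil tags (2.75-fold) and the other 4 against 26 (6.67-fold). Gm18728, a row of 429.5 kb on chromosome 1, carried 3 of 3.69- to 4.84-fold. Others, picked after their values were seen, were Smarce1-ps1 (10 against 63 tags, 7.42-fold) and the ribosomal protein copies Rpl13a-ps1 (6 against 31, 5.74-fold) and Rps24-ps2 (8 against 39, 5.63-fold). These picks lie in the upper part of the range. The 74 members that touched a pseudogene had a median of 4.08-fold (1.86 to 10.34). The sources used here do not say how reads shared by near-identical copies were placed, so values over pseudogenes are uncertain.

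Antigen receptor loci held 32 members, 2 of which also touched a pseudogene. These are loci whose gene segments are joined only in lymphocytes and which the rule did not count as genes. The immunoglobulin kappa locus Igk on chromosome 6 held 13, the T cell receptor alpha locus Tcra on 14 held 10 and the immunoglobulin heavy chain locus Igh on 12 held 9. Median retained signals were 26.7%, 22.8% and 29.2%, and folds ran from 2.56 to 6.96. The best supported was in Igh, 113957425 to 113957801, with 30 tamoxifen tags against 153 oil tags (6.45-fold, retained 15.0%, limits 9.76% to 22.2%). Without these loci the median over the members was 24.1%.

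Genes that border deserts were counted from lists of muscle, other cell type, developmental and adhesion genes. Captured DNA does not measure expression, so these counts say nothing of which cells the cultures held. Of all 20560 protein-coding genes on these chromosomes, 869 (4.23%) bordered a desert and 495 (2.41%) 1 with a far region. Of 22 satellite cell and myogenic genes only the chemokine receptor gene Cxcr4 did, and its desert, shared with Thsd7b, held 5 regions of 2.40- to 9.63-fold. Pax7, Myod1 and the other 19 bordered none. Among 8 fibro-adipogenic markers, the desert between the growth factor receptor genes Pdgfra and Kit held 3 (2.82- to 4.30-fold), and that beside the collagen gene Col3a1 held 2 (2.70- and 3.62-fold). Of 5 endothelial markers Kdr bordered a desert that held none, and the 4 immune and 4 Schwann cell markers bordered none.

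Of 50 developmental transcription factor genes, 7 bordered a desert and 6 of these deserts held regions. Gata6, a gene of heart and endoderm development, had 2 at 4.71- and 5.92-fold, the nearer 100.2 kb away. Dach1 had 2 (3.78- and 5.10-fold), Tbx18 2 (3.49- and 4.73-fold), and Irx1 (3.86-fold), Irx5 (3.13-fold) and Foxp1 (2.84-fold, 85 tamoxifen tags against 186 oil tags) 1 each. The desert of Satb1 held none.

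Adhesion and guidance genes, a list drawn up because such genes often border deserts, did so in 36 of 55 cases, and 28 of these had regions. Pcdh9 had 13, the cadherin genes Cdh12 and Cdh18 10 and 8, and the latrophilin gene Adgrl3 6. Median retained signals in these deserts were 31.9%, 19.9%, 31.9% and 25.6%. The guidance genes Slit2 (4 regions, 22.9%) and Dcc (3 regions, 26.6%) lay between them, while Cdh11, Cdh19, Pcdh15, Pcdh18, Cntn6, Nrxn3, Robo2 and Unc5c bordered deserts with none. Because the list was made for this neighbourhood, its count is not a finding about these genes.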

How the data were processed

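The comparison was between 1 tamoxifen and 1 oil library, assumed to be of MBD2-captured DNA. Per the file headers, the authors called the regions with MACS 2.2.6 with oil as treatment and tamoxifen as control input, extended tags to 201 bp, scaled the larger library to the smaller, and used no regional background and a q limit of 1e-04. The deposited pileup is a signal value, the oil coverage of the summit. The deposited fold is a ratio. Columns with lost headings were read as the deposited −log10 p and q values. The submitters' processing notes name Trim Galore, HISAT2 and mm10.

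Tamoxifen tags were computed from pileup and fold with a library factor of 0.763. They were whole within 0.02 tags in 97.5% of regions, and the rest equalled the genome mean of 2.10, so 2 or fewer tags. Distances ran from the midpoint to gene bodies of GRCm38.p6 RefSeq (20560 protein-coding and 12324 lncRNA genes). Another 189 rows placed ahead of position 3000000, where no region is listed, were left out. All 1616 members were the same with them. Limits are exact (Clopper-Pearson) and cover counting error only. Named regions were, among members, the 10 of highest fold, the 5 each farthest from genes, with most oil or tamoxifen tags, and widest, the 3 on each side of the limit, and the leading deserts and runs. The members and lists were chosen with earlier results of these data known. Distances and tag recovery were tested on simulated data with Python 3.11.15, pandas 2.3.3 and scipy 1.17.1. Values for some genes next to deserts are not reported here.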

Additional observations from a re-analysis of the deposited data

How the results depend on the processing

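With 1 library per group, differences between mice are not seen, and listed regions cannot show what was unchanged or gained. The count of 1616 far regions became 2956 with a limit of 50 kb (7.66% of listed regions, density ratio 0.281, median fold 4.08, 52.3% with a fold of 4 or more), 805 with 200 kb (2.09%, ratio 0.220), 3991 with protein-coding genes only (10.3%, ratio 0.302, median fold 4.24, 54 oil tags, 56.0%) and 710 with all gene types (1.84%). At a q of 1e-06 the median fold was 4.01 and 50.5% had a fold of 4 or more, and at 1e-10 the values were 4.28, 58.0%, 61 oil tags, a share of 3.86% and a ratio of 0.221. With unscaled tamoxifen tags the median fold was 3.04 and 24.5% reached 4. The ratio was 0.211 with the span taken from position 1 and 0.222 with all gene rows as listed, an alternative chosen after seeing the data. The median retained signal was higher in far regions than in the others at q limits of 1e-06 (23.5% and 19.6%) and 1e-10 (22.0% and 18.8%). Leaving out the start of chromosome 9 or the antigen receptor loci, both chosen after seeing the data, moved none of the count, share, density ratio, median fold, median oil tags or share with a fold of 4 or more beyond its interval or, for the count, beyond 1.5 times. Without the start of chromosome 9 the number with a fold under 2 was 19, against 49 with it. No paired analysis was possible because each group has 1 sample.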
